A study of Homo sapiens with 4 samples.

Results

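The genes described here encode proteases that cut the extracellular matrix or shed proteins from the cell surface, and the inhibitors and receptor that act on them. They are the matrix metalloproteinases (MMP), the membrane proteases named ADAM, the secreted proteases named ADAMTS, the tissue inhibitors of metalloproteinases (TIMP), the plasminogen activators PLAU and PLAT, and the urokinase receptor PLAUR. These genes, and the lists of related genes below, were chosen with earlier results of these data known. Members were defined by gene symbol, as protein-coding genes whose symbol is MMP, ADAM, ADAMTS or TIMP followed by a digit, together with the 3 plasminogen activator genes. This gave 68 of the 20372 genes in the deposited table, with 22 MMP, 20 ADAM, 19 ADAMTS and 4 TIMP genes.

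The libraries came from TPC1 cells, an established human papillary thyroid carcinoma line that carries the CCDC6-RET rearrangement, treated with the RET inhibitor BLU6864 for 6 h (2 libraries) or 24 h (2 libraries). The groups share the cell line, the medium, and the inhibitor, and differ by time in the inhibitor, so time in culture and time in the inhibitor cannot be told apart. Vehicle libraries were not analysed here. The dose is 100 µM per the labels but 100 nM per the methods. Both 24 h libraries carry the mark re-analysis, which is not explained. Nothing states whether the 2 libraries of a time point came from separate cultures, so P values measure only the spread between libraries, which may be technical.

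Total counts lay between 23917056 and 27457040 per library, and the 68 genes took between 0.570% and 0.635% of them. Cell type markers were read in the same libraries. Of 7 thyroid follicular markers, 3 had more than 3 counts in every library, led by PAX8, and TSHR and NKX2-1 were at 0. Keratin genes were expressed, while CDH1 and EPCAM averaged fewer than 10 normalized counts. Of 6 fibroblast markers, 3 had more than 3 counts in every library, COL3A1 was at 0, and the summed level of the 6 was between 23.4 and 24.1 CPM (the count scaled to the TMM-adjusted library total) at 6 h and between 9.79 and 11.2 at 24 h. These markers went both ways, with COL1A1 and PDGFRB called lower (log2 fold change -1.57 and -1.48) and LUM called higher (0.75). Of 7 white blood cell markers, CD68 and LAPTM5 were expressed, and PTPRC, LYZ, TYROBP and CD3E averaged fewer than 3 normalized counts. The summed level of these 7 markers ranged from 252 to 267 CPM at 6 h and from 165 to 177 at 24 h. The part of other cells in the results below was not tested.

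Matrix metalloproteinases are zinc proteases made as inactive precursors. Most are secreted and some are anchored in the membrane, where the anchored enzyme MMP14 activates the MMP2 precursor in a complex that contains TIMP2. ADAM proteases release growth factors, cytokines and receptors from the cell surface, ADAMTS proteases process collagens and proteoglycans, and urokinase bound to its receptor turns plasminogen into plasmin. Several of these genes, MMP1 and PLAUR among them, are known as targets of ERK signaling through AP-1 and ETS transcription factors.

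To ask which of these genes differed between 24 h and 6 h of BLU6864, counts were compared with edgeR's quasi-likelihood test across all 12876 genes with sufficient counts. A gene is called here if its log2 fold change (log2FC) was over 0.5 in size with an unadjusted P under 0.01, the cutoffs of the methods used in both directions. Positive log2FC values mark genes with more counts at 24 h, and the number after ± is the standard error of the fit. Counts given below are normalized to the mean library by the TMM method. Of the 68 members, 43 were tested, of which 17 were higher and 13 lower at 24 h. With library size alone in place of TMM the split was 13 higher and 15 lower. The same cutoffs called 17.4% of all genes tested higher and 17.7% lower, against 39.5% and 30.2% of the tested members. Since the members were chosen with earlier results of these data known, these shares are descriptions. All 30 called members also had a Benjamini-Hochberg adjusted P under 0.05 in edgeR. So did all 4516 called genes of the whole fit, so this sets the members apart in no way. The median size of the log2FC, without its sign, was 0.999 in the tested members and 0.37 in all genes tested, and the median with its sign was 0.09 against 0.0029. Thus members moved in both directions. Both 24 h libraries lay above both 6 h libraries in 21 members and below them in 19, beside 41.0% and 40.8% of all genes tested. The other 3, ADAM22, ADAM32 and ADAMTS5, overlapped.

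**Figure D1:**
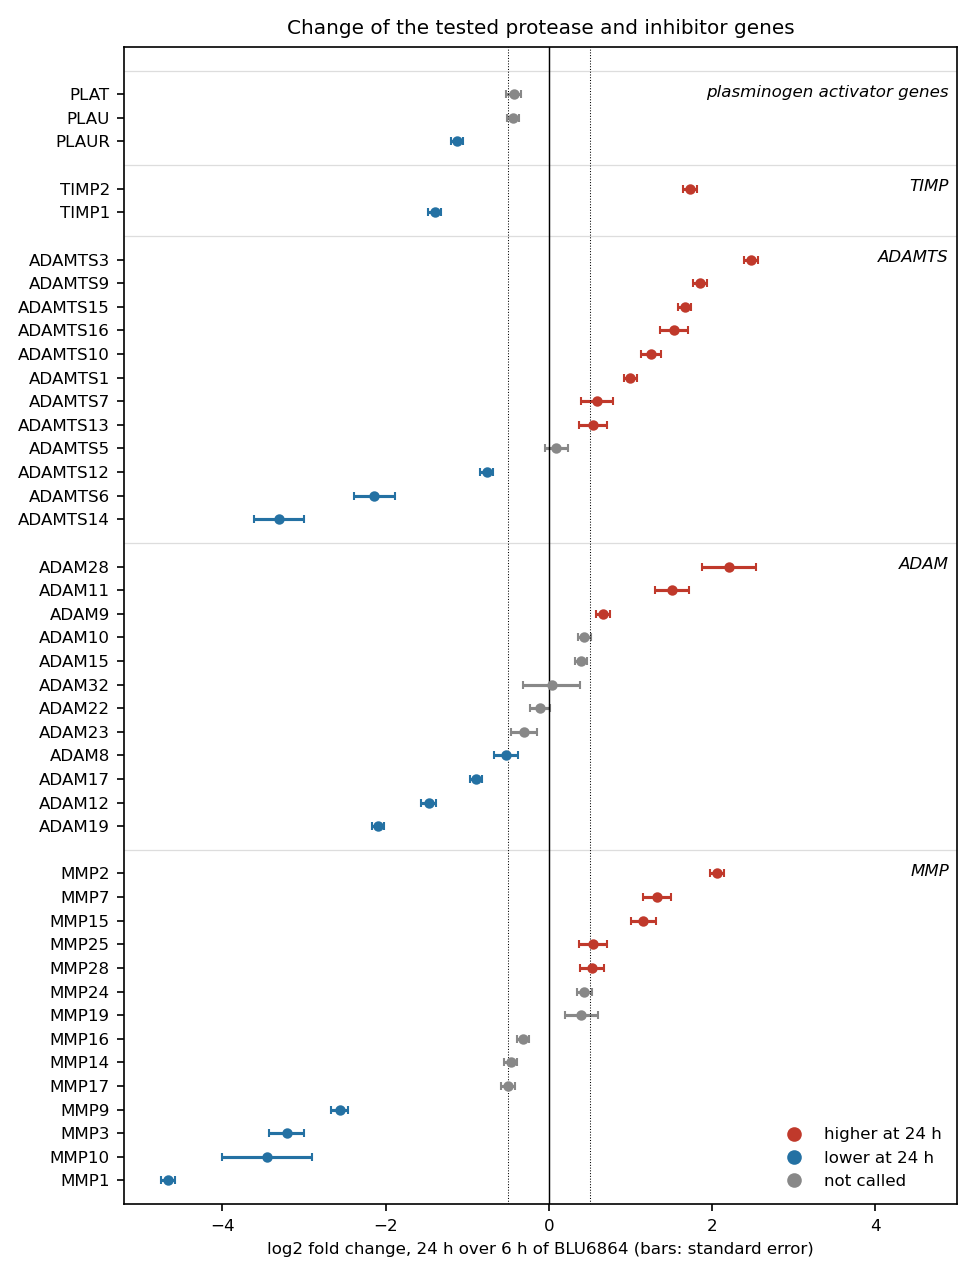
Log2FC between 24 h and 6 h of BLU6864 for the 43 tested genes, by family, with standard errors as bars. Dotted lines mark 0.5 and -0.5, and colors mark the 17 genes called higher, the 13 called lower, and the 13 not called; the changes run from -4.66 in MMP1 to 2.48 in ADAMTS3.

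The largest change among the 43 tested members was in MMP1. It encodes the interstitial collagenase, lies on chromosome 11 of hg19 from 102660651 to 102668891 and had 6866 and 7219 normalized counts at 6 h and 288 and 268 at 24 h. This is a log2FC of -4.66 ± 0.0889 (edgeR adjusted P = 1.93e-24), or a 25.4-fold lower count. It ranked 43 by size among the falls of all 12876 genes tested. In bulk RNA, fewer cells of a kind and less RNA per cell cannot be told apart. The gelatinases, which cut denatured collagen and basement membrane collagen, moved in opposite directions. MMP9 (chromosome 20, 44637547 to 44645200) had 1291 and 1107 normalized counts at 6 h and 185 and 219 at 24 h, a log2FC of -2.57 ± 0.105. MMP2 (chromosome 16, 55423612 to 55540603) had 5026 and 4287 at 6 h and 18809 and 19898 at 24 h. Its log2FC was 2.06 ± 0.0850 (edgeR adjusted P = 1.69e-17), a 4.16-fold rise, and the 2 time points were far apart in both gelatinases.

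The stromelysins MMP3 and MMP10 cleave many matrix proteins and can activate the MMP1 precursor, and both were lower at 24 h. For MMP3, the 6 h libraries held 206 and 198 normalized counts and the 24 h libraries 28.9 and 14.6, a log2FC of -3.21 ± 0.214. MMP10 was scarce throughout, with 22 and 23 raw counts at 6 h and 2 and 2 at 24 h. The ratio of its pooled counts, 6 h over 24 h, was 11.6, with an exact 95% interval from 4.23 to 44.4 that covers counting error only. MMP10 passed the filter on low counts through its 6 h libraries alone. MMP7, or matrilysin, which lacks the hemopexin domain of most MMPs, went the other way. It had 58.3 and 55.6 normalized counts at 6 h and 144 and 140 at 24 h, a log2FC of 1.32 ± 0.173 (edgeR adjusted P = 2.10e-07). The third stromelysin gene, MMP11, had at most 3 counts in any library and was not tested.

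**Figure D2:**
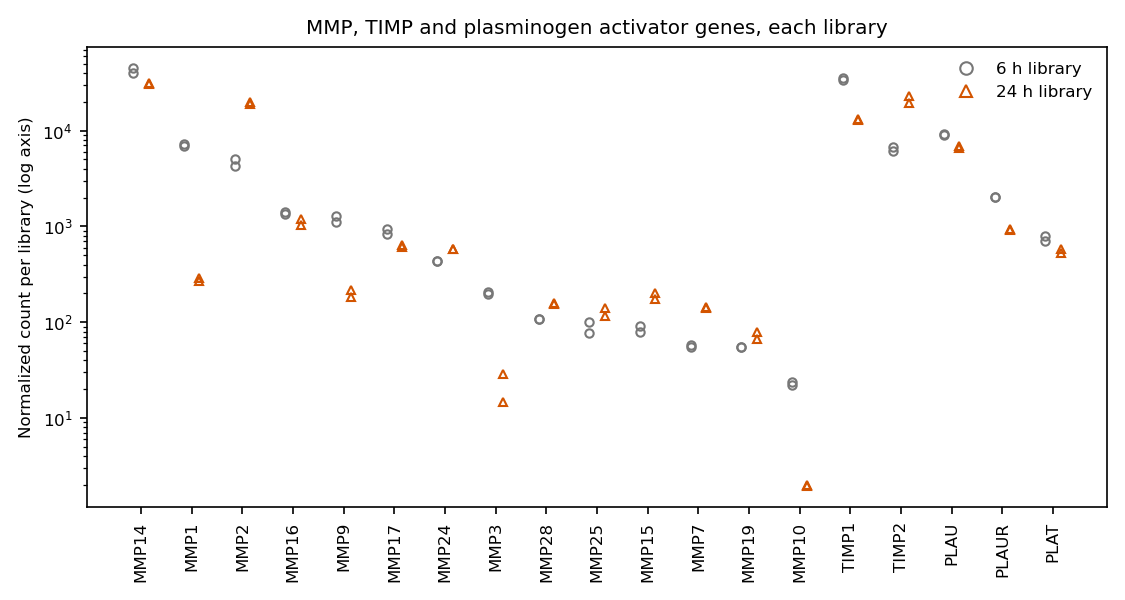
Normalized counts of the tested MMP, TIMP and plasminogen activator genes on a log axis, with circles for the 6 h libraries and triangles for the 24 h libraries, and genes ordered by their 6 h mean within each family. MMP1, MMP9, MMP3, MMP10, PLAUR and TIMP1 dropped at 24 h, and MMP2, MMP7, MMP15 and TIMP2 rose, each with the 2 time points apart.

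These genes were then followed along chromosome 11, where 8 of the MMP genes lie within 435 kb (hg19, 102391239 to 102826463), in the order MMP7, MMP20, MMP27, MMP8, MMP10, MMP1, MMP3 and MMP13. MMP8, MMP13 and MMP27 had no count in any library and MMP20 had at most 3 counts, so 4 of the 8 were tested. The 3 called lower, MMP10, MMP1 and MMP3, follow one another in this order, whereas MMP7, called higher, is at the far end. The summed normalized count of the cluster was 7155 and 7498 at 6 h and 463 and 425 at 24 h. MMP1 gave between 96.0% and 96.3% of it at 6 h and between 62.2% and 62.9% at 24 h. Within 1000 kb on either side, 8 other genes were tested, of which 1 was called higher, PDGFD with a log2FC of 1.49, and 0 lower. The most abundant of these neighbors, TMEM123 and BIRC3, had log2FC values of 0.27 and 0.08.

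**Figure D3:**
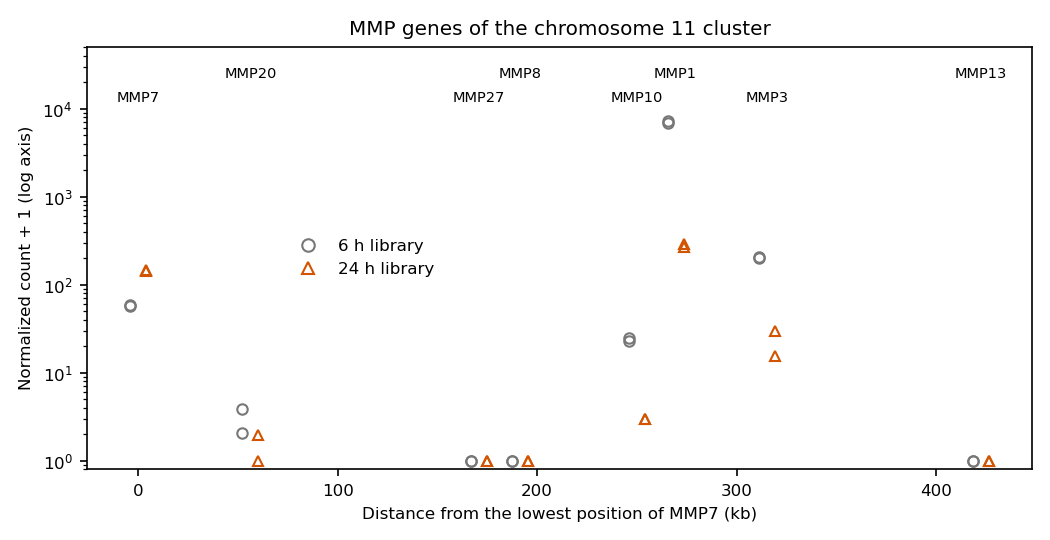
Normalized counts plus 1, on a log axis, of the 8 MMP genes of the chromosome 11 cluster against the distance of each gene's lowest position from that of MMP7; circles are 6 h libraries and triangles 24 h libraries, shifted sideways by a few kb to be told apart. MMP10, MMP1 and MMP3 are lower at 24 h, MMP7 is higher, and the other 4 genes are at or near 0 counts.

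The RefSeq promoter table of the GRCh38.p14 build, which holds 250 bases before and 50 after each gene start, had an entry for 41 of the 68 members and for 16 of the 30 called, with 43 member promoters in all since ADAMTS10 and PLAU had 2 each. MMP1, MMP2, MMP3, MMP9 and TIMP2 were among the called members without an entry, so their promoters were not searched. The entries were searched on both strands for the AP-1 site TGANTCA, where N is any base. The site was found in 5 of the 43 member promoters (11.6%), against 7.71% of all 35116 promoters in the table. By gene, it was found in 3 of 10 members called lower, 1 of 6 called higher, 0 of 7 not called, and 1 of 18 not tested. The 4 called members with the site, of which 3 fell and 1 rose, are shown from 15 bases before the match to the base before the gene start, 5′ to 3′ on the gene's strand, with the match in capitals.
MMP10 (chr11:102780629-102780710, minus strand, lower at 24 h): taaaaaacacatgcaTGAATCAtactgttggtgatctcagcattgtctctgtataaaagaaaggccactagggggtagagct
MMP7 (chr11:102530748-102530829, minus strand, higher at 24 h): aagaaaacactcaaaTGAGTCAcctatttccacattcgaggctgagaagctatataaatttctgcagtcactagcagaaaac
PLAUR (chr19:43670170-43670370, minus strand, lower at 24 h): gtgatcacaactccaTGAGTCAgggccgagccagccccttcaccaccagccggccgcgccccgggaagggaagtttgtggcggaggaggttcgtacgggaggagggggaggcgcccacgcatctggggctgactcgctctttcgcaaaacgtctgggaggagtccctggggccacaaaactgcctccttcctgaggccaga
ADAMTS12 (chr5:33891991-33892089, minus strand, lower at 24 h): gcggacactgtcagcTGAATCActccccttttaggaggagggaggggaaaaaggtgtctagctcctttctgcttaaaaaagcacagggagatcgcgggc
In MMP10 and MMP7 the match began 67 bases before the gene start, in PLAUR 186 and in ADAMTS12 84. The ETS motif CCGGAA was found in 11.6% of the member promoters and in 17.2% of all promoters, and ADAM17 was the called member that held it. A match describes these letters in this window and does not show a bound factor.

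The 6 MMP genes grouped here as membrane-anchored were MMP14, MMP15, MMP16, MMP17, MMP24 and MMP25, and all were tested. Of these, 2 were called higher and 0 lower, beside 17.4% and 17.7% of all genes tested. MMP14, or MT1-MMP, was the most abundant MMP gene per transcript length at both time points. It had 45164 and 40317 normalized counts at 6 h and 30487 and 31240 at 24 h, a log2FC of -0.47 ± 0.0850 (edgeR adjusted P = 2.69e-05), just short of the cutoff on size. MMP17, with 829 and 933 counts at 6 h and 612 and 638 at 24 h, was closer still, at -0.497 ± 0.0861, and both were called lower with library size alone as the scaling. MMP14 also passed without replicate 2 at 6 h (-0.55), and MMP17 without replicate 2 at 24 h or replicate 1 at 6 h. MMP15, or MT2-MMP, had 90.7 and 78.7 normalized counts at 6 h and 173 and 203 at 24 h, and its log2FC was 1.16 ± 0.156. MMP25, with 77.7 and 99.8 counts at 6 h and 117 and 142 at 24 h, was also called, at 0.54 ± 0.171. MMP28, a secreted epithelial MMP, had 109 and 109 counts at 6 h and 154 and 160 at 24 h and was called at 0.52 ± 0.147. The calls of MMP25 and MMP28 were lost with library size alone and with DESeq2, whose unadjusted P was 0.0489 and 0.0287. They were also lost with a library left out, for MMP25 at a log2FC of 0.39 without replicate 2 at 24 h and 0.37 without replicate 1 at 6 h, and for MMP28 at 0.52 (unadjusted P = 0.0113 in the edgeR model) without replicate 2 at 6 h. MMP16 and MMP24, also membrane-anchored, and the secreted MMP19, with log2FC values of -0.32, 0.43 and 0.40, were not called.

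The tissue inhibitors that were detected moved in opposite directions. TIMP1 (chromosome X, 47441712 to 47446188), a secreted inhibitor of most MMPs, had 35509 and 33546 normalized counts at 6 h and 12793 and 13357 at 24 h. TIMP2 (chromosome 17, 76849059 to 76921469), which inhibits MMPs and also takes part in MMP2 activation, had 6711 and 6177 at 6 h and 19417 and 23166 at 24 h. The log2FC was -1.40 ± 0.0814 for TIMP1 (edgeR adjusted P = 2.74e-14) and 1.72 ± 0.0874 for TIMP2 (edgeR adjusted P = 1.43e-15). Each gene's time points were apart by far more than its libraries differed. TIMP3 was at 0 in every library, which allows up to 3 counts in each, and TIMP4 had 1 count in a single library. TIMP1 lies inside SYN1 and TIMP2 spans DDC8 in the table, and SYN1 and DDC8 had at most 5 counts in any library.

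Levels were compared between genes per kb of transcript, as CPM per kb of the longest protein-coding transcript (RPKM). TIMP1 stood at a mean of 1206 RPKM at 6 h, the 26th highest level of the table's genes with a length, and at 457 at 24 h, while TIMP2 went from 67.5 to 223. The ratio of TIMP1 to TIMP2, on this RPKM scale, was 17.6 and 18.1 at 6 h and 2.20 and 1.92 at 24 h. As a share of the summed RPKM of the TIMP genes, TIMP2 made up 5.36% and 5.23% at 6 h and 31.3% and 34.2% at 24 h. Among MMP genes, leaving out MMP28 for which no length was matched, MMP14 held 66.0% and 63.7% of the summed RPKM at 6 h and 56.7% and 56.0% at 24 h. The share of MMP1 went from 18.9% and 21.4% to 1.005% and 0.900%, and that of MMP2 from 7.74% and 7.14% to 36.8% and 37.5%. MMP2 therefore took the second place that MMP1 held at 6 h. The summed RPKM of the MMP genes was 706 and 653 at 6 h and 556 and 577 at 24 h, and that of the TIMP genes 1310 and 1236 against 650 and 709. The ratio of MMP14 to TIMP2 was 6.64 and 6.44 at 6 h and 1.55 and 1.33 at 24 h, and that of MMP2 to TIMP2 was 0.778 and 0.721 against 1.01 and 0.893.

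The plasminogen activator genes were all lower in both 24 h libraries, and 1 of the 3 passed the cutoffs. Of all genes tested, 40.8% were lower in both 24 h libraries and 17.7% were called lower. PLAUR (chromosome 19, 44150247 to 44174699), the receptor that holds urokinase at the cell surface, had 2022 and 2010 normalized counts at 6 h and 919 and 931 at 24 h. Its log2FC was -1.12 ± 0.0716 (edgeR adjusted P = 1.93e-13). PLAU, which encodes urokinase, had 9245 and 9059 at 6 h and 6858 and 6638 at 24 h, a log2FC of -0.44 ± 0.0726 (edgeR adjusted P = 7.62e-06). PLAT, the tissue-type activator, had 795 and 705 at 6 h and 579 and 533 at 24 h, with a log2FC of -0.43 ± 0.0899 (edgeR adjusted P = 1.61e-04). For PLAU and PLAT the difference exceeded the spread between libraries but not the cutoff on size, which PLAT passed without replicate 2 at 6 h (-0.52). The ratio of PLAU to PLAUR, in RPKM, was 2.77 and 2.73 at 6 h and 4.52 and 4.32 at 24 h.

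Partner genes of the plasminogen system were read from a list of 16 chosen by function, of which 10 were tested, 2 were called higher, and 1 lower, shares near the 17.4% and 17.7% of all genes tested. SERPINB2 and SERPINF2 each passed the filter on low counts through a single time point. SERPINB2, an inhibitor of urokinase, had 82 raw counts over the 6 h libraries and 0 over the 24 h libraries. Set against a floor of 3 counts per library, it was at least 14.0-fold lower at 24 h. SERPINF2, the antiplasmin, averaged 2.16 normalized counts at 6 h and 219 at 24 h. MRC2, a collagen receptor that associates with the urokinase receptor, had a log2FC of 0.68 ± 0.0788. PLG, the plasminogen gene itself, was at 0 in every library.

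Among the ADAM genes, 12 of 20 were tested, of which 3 were called higher and 4 lower (25.0% and 33.3%, beside 17.4% and 17.7% of all genes tested). ADAM19, a sheddase of neuregulin, had the largest fall of the tested ADAM genes, with 4611 and 4758 normalized counts at 6 h and 1055 and 1143 at 24 h and a log2FC of -2.09 ± 0.0751 (edgeR adjusted P = 7.30e-19). ADAM12, another sheddase with a secreted form, had 785 and 779 at 6 h and 282 and 281 at 24 h, a log2FC of -1.47 ± 0.0930. ADAM17, which releases TNF and several EGF receptor ligands, was lower too. Its counts were 6820 and 6507 at 6 h and 3664 and 3530 at 24 h, and its log2FC was -0.89 ± 0.0716 (edgeR adjusted P = 2.47e-11). ADAM8 was at the edge of the cutoffs, at -0.52 ± 0.148, with 168 and 183 normalized counts at 6 h and 108 and 137 at 24 h. Its call was lost with DESeq2 and upper quartile scaling, and its log2FC was -0.35 without replicate 1 at 24 h and -0.46 without replicate 2 at 6 h, both short of the cutoffs.

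The ADAM genes that were higher at 24 h were ADAM9, ADAM11 and ADAM28. ADAM9 was the most abundant ADAM gene, with 15618 and 13237 normalized counts at 6 h and 22989 and 22651 at 24 h, and its log2FC was 0.66 ± 0.0843 (edgeR adjusted P = 1.34e-07). ADAM11, which lacks a working catalytic site, had 38.9 and 39.3 at 6 h and 94.6 and 128 at 24 h, a log2FC of 1.51 ± 0.210. In ADAM28 the 6 h libraries differed, with 5 and 20 raw counts, against 61 and 59 at 24 h. Its log2FC of 2.21 ± 0.333 was 1.62 without replicate 1 and 3.42 without replicate 2 at 6 h, so its size rests on which 6 h library is used. ADAM28 reached at least 10 counts in every library of a time point at 24 h alone, so its call describes where it is detected. ADAM10, the main sheddase of Notch and cadherins, and ADAM15 had log2FC values of 0.43 and 0.39 and were not called, although their time points did not overlap, and ADAM10 passed the cutoffs without replicate 1 at 6 h. The ratio of ADAM10 to ADAM17 in RPKM was 0.562 and 0.503 at 6 h and 1.30 and 1.37 at 24 h. Their order at 6 h rests on the transcript lengths used, 11158 bases for ADAM10 and 4776 for ADAM17. In normalized counts ADAM10 was above ADAM17 at both time points, with 6 h means of 8296 against 6663. Of the 4 tested ADAM genes without a catalytic site, 1 was called, and ADAM22, ADAM23 and ADAM32 had log2FC values of -0.11, -0.30 and 0.03.

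**Figure D4:**
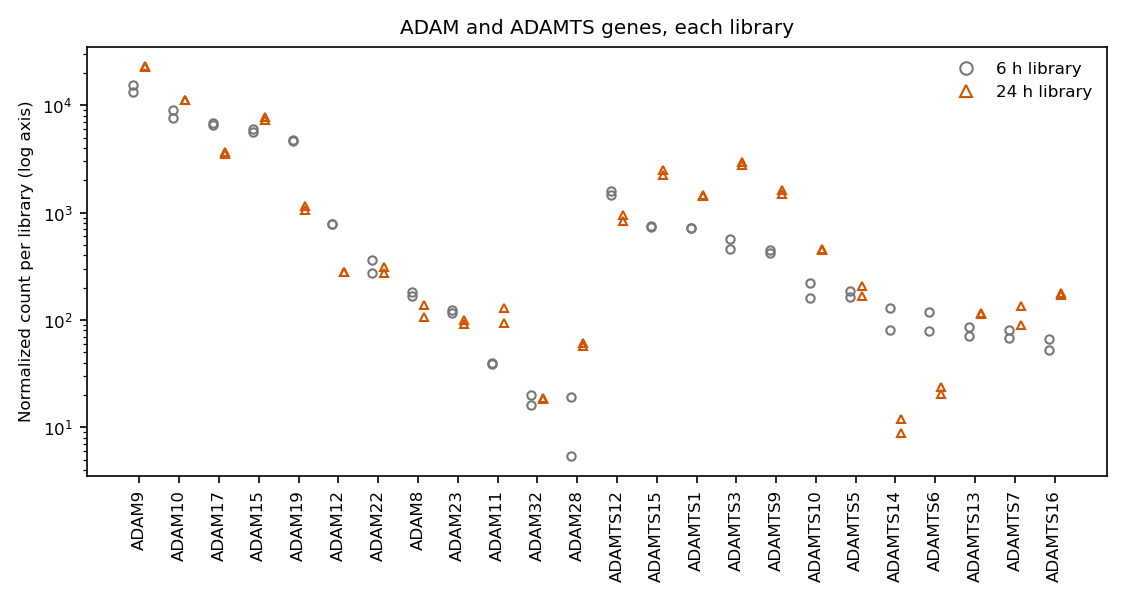
Normalized counts of the tested ADAM and ADAMTS genes on a log axis, with circles for the 6 h libraries and triangles for the 24 h libraries, and genes ordered by their 6 h mean within each family. ADAM19, ADAM12 and ADAM17 were lower at 24 h, and ADAMTS3, ADAMTS9, ADAMTS15 and ADAMTS1 were higher.

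A further list, chosen by function, held 20 genes for enzymes, cofactors and inhibitors that act on MMP or ADAM proteins, of which 17 were tested, 2 were called higher, and 2 lower (11.8% each way, below the 17.4% and 17.7% of all genes tested). TSPAN5 and TSPAN15, tetraspanins that guide ADAM10 to the cell surface, were the genes called higher, with log2FC values of 0.89 ± 0.0704 and 0.88 ± 0.0709. The others of this tetraspanin group that were tested, TSPAN14, TSPAN17 and TSPAN33, were not called, at -0.14, -0.0036 and 0.40. RHBDF1 and RHBDF2, which escort ADAM17, had log2FC values of 0.29 and 0.36 and were not called. FURIN, which cuts the propeptides of ADAM and membrane-anchored MMP proteins, had a log2FC of -0.23, and RECK, a membrane inhibitor of MMPs, -0.25. PCOLCE and PCOLCE2, enhancers of procollagen processing, were the genes called lower, at -1.51 and -1.32.

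Of the 19 ADAMTS genes, 12 were tested, of which 8 were called higher and 3 lower (66.7% and 25.0%, beside 17.4% and 17.7% of all genes tested). Of the 4 tested members that cleave proteoglycans such as versican and aggrecan, 3 rose. ADAMTS9 had 418 and 450 normalized counts at 6 h and 1640 and 1504 at 24 h, a log2FC of 1.86 ± 0.0843 (edgeR adjusted P = 1.38e-16). ADAMTS15 went from 737 and 758 to 2226 and 2515, a log2FC of 1.66 ± 0.0779. ADAMTS1 had 718 and 718 at 6 h and 1419 and 1451 at 24 h, a log2FC of 0.999 ± 0.0763. The fourth, ADAMTS5, a major aggrecanase, overlapped between the time points, with 165 and 187 against 167 and 208 normalized counts and a log2FC of 0.09 ± 0.138. ADAMTS4 and ADAMTS8 had at most 2 counts in any library.

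ADAMTS3 and ADAMTS14, which remove the amino-terminal propeptide of procollagens, moved in opposite directions. For ADAMTS3, on chromosome 4 from 73146686 to 73434516, the counts were 572 and 461 at 6 h and 2791 and 2941 at 24 h. Its log2FC of 2.48 ± 0.0865 (edgeR adjusted P = 3.88e-19) was the largest rise among the 43 tested members. ADAMTS14, on chromosome 10 from 72432559 to 72522197, had 119 and 84 raw counts at 6 h and 12 and 9 at 24 h. Its log2FC was -3.31 ± 0.309. ADAMTS14 reached at least 10 counts in every library of a time point at 6 h alone, so its call describes where it is detected. The third gene of this kind, ADAMTS2, had at most 3 counts in any library and was not tested. On the RPKM scale ADAMTS3 went from 3.16 to 17.5 and ADAMTS14 from 0.719 to 0.0713.

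Other ADAMTS genes also differed. ADAMTS10 and ADAMTS6, which are closely related and bind fibrillin, went opposite ways. ADAMTS10 had 159 and 219 normalized counts at 6 h and 444 and 456 at 24 h (log2FC 1.25 ± 0.122), and ADAMTS6 had 119 and 78.7 at 6 h and 23.9 and 20.4 at 24 h (log2FC -2.14 ± 0.255). ADAMTS16 went from 52.9 and 67.2 to 169 and 180, a log2FC of 1.53 ± 0.168. ADAMTS7 and ADAMTS12, which cleave cartilage oligomeric matrix protein, again differed in direction, with log2FC values of 0.59 ± 0.194 and -0.76 ± 0.0791. ADAMTS12 had 1578 and 1448 normalized counts at 6 h and 945 and 839 at 24 h, and was the most abundant ADAMTS gene per length at 6 h. ADAMTS13, the protease of von Willebrand factor, had 71.2 and 86.3 counts at 6 h and 116 and 115 at 24 h and was called higher at 0.54 ± 0.171. ADAMTS7 had 68.0 and 80.6 at 6 h and 89.7 and 134 at 24 h. The calls of ADAMTS7 and ADAMTS13 were lost with library size alone and with DESeq2, at an unadjusted P of 0.0530 and 0.0526. ADAMTS7 had a log2FC of 0.27 without replicate 2 at 24 h and 0.48 without replicate 1 at 6 h, and ADAMTS13 lost its call without replicate 1 (0.54) or 2 (0.55) at 24 h and without replicate 1 at 6 h (0.41).

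**Figure D5:**
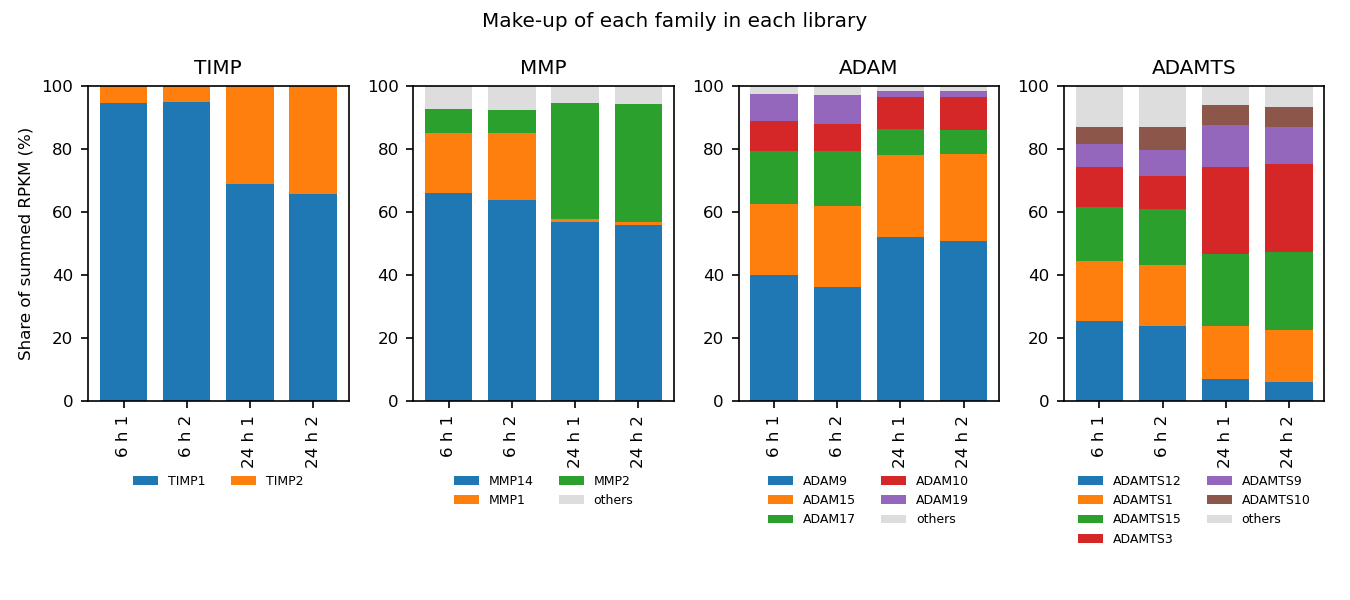
Share of the summed RPKM that each gene took within the TIMP, MMP, ADAM and ADAMTS families, as stacked bars from 0 to 100% in each library; genes under 5% in every library are pooled as others, and MMP28 is left out. TIMP2 goes from 5.36% and 5.23% to 31.3% and 34.2%, MMP2 takes the second place of MMP1, and ADAMTS3 becomes the largest ADAMTS share at 24 h.

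As a family, the ADAMTS genes had a summed RPKM of 27.7 and 27.2 at 6 h and 61.9 and 64.4 at 24 h. ADAMTS12 took 25.4% and 23.8% of this sum at 6 h and 6.81% and 5.81% at 24 h, and ADAMTS3 went from 12.6% and 10.4% to 27.6% and 28.0%. The summed RPKM of the ADAM genes was 323 and 302 at 6 h and 365 and 369 at 24 h, and within it ADAM9 went from 39.9% and 36.2% to 52.0% and 50.7% and ADAM19 from 8.42% and 9.31% to 1.71% and 1.83%. The summed RPKM of the plasminogen activator genes was 191 and 187 at 6 h and 128 and 124 at 24 h. These sums are descriptions of the libraries, with no test.

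Of the 25 members not tested, 12 had no count in any library, 9 had between 1 and 3 counts at most, and 4 (ADAM21, ADAMTS17, ADAMTS18 and MMP21) reached at most 10. The 12 at 0 were ADAM2, ADAM7, ADAM18, ADAM29, ADAM30, ADAMTS19, ADAMTS20, MMP8, MMP13, MMP26, MMP27 and TIMP3. Among the 43 tested, 40 had at least 10 counts in every library of both time points, while ADAM28 reached that at 24 h alone and MMP10 and ADAMTS14 at 6 h alone. A gene that passed through a single time point was kept for its counts there. Its call is therefore a description of where it is detected. The positions of 10 tested members overlap another gene of the table, namely ADAM15, ADAM17, ADAM19, ADAMTS7, ADAMTS13, MMP24, MMP28, PLAU, TIMP1 and TIMP2. The strand setting of the counting is not given in the sources used here, so counts of overlapping genes are uncertain. ADAM19 overlaps CYFIP2, which was called higher with a log2FC of 1.22, opposite to ADAM19. MORF4L1, which overlaps ADAMTS7, had 6404 normalized counts at 6 h against 74.3 for ADAMTS7, and was not called. REXO4, which overlaps ADAMTS13, had 723 normalized counts at 6 h and 985 at 24 h, against 78.8 and 115 for ADAMTS13. Its log2FC of 0.45 was in the direction of ADAMTS13, and it was not called. The part of shared reads in these calls was not tested.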

How the data were processed

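RNA-seq libraries of TPC1 cells were analysed from 1 deposited table of 4 libraries (BLU6864 for 24 h and for 6 h, 2 each). The authors aligned reads to hg19 with STAR (2.3 in the submitters' processing notes) and deposited raw counts per gene, with no filter stated. The authors' normalized columns are the count divided by a DESeq2 size factor, a signal value that was not used here. The log2 fold changes, their standard errors and test scores, and the p-values of the authors' own comparison were likewise deposited and were not used.

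Counts were fitted in R 4.3.3 with edgeR 4.0.16 (filterByExpr, TMM scaling, quasi-likelihood test, Benjamini-Hochberg adjustment over all 12876 genes), with 24 h against 6 h and no covariates; DESeq2 1.42.0 was an alternative. RPKM used the longest protein-coding GENCODE transcript, matched by gene ID for 67 of 68 members. Every called member, the most abundant tested member of each family, all tested TIMP and plasminogen activator genes, and up to 3 of the largest rises and falls among the called genes of each partner list were named, and other partners were named for their role. Members and lists were chosen with earlier results of these data known. Scripts were tested on simulated counts. Other scalings and filters, a replicate block and leaving out each library were tried. Gene positions are those of the table, and promoters came from the RefSeq table of GRCh38.p14. Protein sequences were not used here.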

Additional observations from a re-analysis of the deposited data

How the results depend on the processing

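The count of members called higher was 17, and it was 13 with DESeq2 and with library size alone, 16 with at least 10 counts in every library, and 17 with upper quartile scaling, with no filter on low counts, with adjusted P under 0.05, and with the replicate number as a block. The count called lower was 13, and it was 12 with DESeq2 and upper quartile scaling, 15 with library size alone, 11 with at least 10 counts in every library, and 13 with the replicate block. Adjusted P under 0.05 could drop no call, since all 4516 called genes passed it, so its unchanged counts and values add no support. Leaving out each library in turn gave 14 to 16 higher and 12 to 14 lower. Of the log2 fold changes of the 30 called members, MMP14, PLAU and PLAT over these alternatives, 337 kept their side of the cutoffs, 20 fell short and 3 passed anew, and 0 changed sign. The 20 belong to ADAM8, ADAMTS7, ADAMTS13, MMP25 and MMP28, whose cause was not tested, and the 3 to MMP14 and PLAT. Outside these genes, MMP17 was called lower with library size alone and with 2 of the libraries left out, and ADAM10 higher without replicate 1 at 6 h. Same-numbered libraries had deviations correlated at 0.155, and the labels give the numbers no meaning. With 2 libraries a group, time in culture and the re-analysis mark of both 24 h libraries cannot be told apart from time in BLU6864.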

Other observations

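Other proteases of the extracellular and pericellular space were read from a list of 20 genes chosen by function, of which 15 were tested, 5 were called higher and 7 lower at 24 h, beside 17.4% and 17.7% of all genes tested. ST14, or matriptase, an epithelial serine protease, had 206 and 207 normalized counts at 6 h and 10.96 and 21.4 at 24 h, a log2FC of -3.66 ± 0.221 (edgeR adjusted P = 6.39e-14). MME, or neprilysin, and PAPPA2, which cleaves insulin-like growth factor binding proteins, had log2FC values of -2.73 ± 0.247 and -2.51 ± 0.0944. All 3 were lower in both 24 h libraries, as were 40.8% of all genes tested. Of the genes called higher, TLL1 and TLL2 encode tolloid-like procollagen proteases, and CTSD a lysosomal protease. TLL1 had 6 raw counts over the 6 h libraries and 41 over the 24 h libraries. The ratio was 6.62, with an exact 95% interval from 2.80 to 19.1 for counting error. TLL1 passed the filter on low counts through its 24 h libraries alone, so its call describes where it was detected. CTSD and TLL2 had log2FC values of 1.12 ± 0.0851 and 0.91 ± 0.0753. The lysosomal proteases differed in direction, since CTSL had a log2FC of -1.29 ± 0.0833.

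The ADAMTS-like proteins share the accessory domains of ADAMTS proteases without the protease itself. Of 7 such genes, papilin included, 6 were tested, 2 were called higher and 2 lower, beside 17.4% and 17.7% of all genes tested. PAPLN, which encodes papilin, had 93.9 and 115 normalized counts at 6 h and 640 and 701 at 24 h, a log2FC of 2.67 ± 0.120 (edgeR adjusted P = 9.96e-17). THSD4, which promotes fibrillin assembly, had 3149 and 3033 at 6 h and 646 and 683 at 24 h, a log2FC of -2.22 ± 0.0752 (edgeR adjusted P = 2.02e-19). ADAMTSL1 and ADAMTSL3 had log2FC values of -1.11 ± 0.0724 and 0.89 ± 0.140. The time points did not overlap in any of these 4. Among all genes tested, both 24 h libraries lay above both 6 h libraries in 41.0% and below them in 40.8%.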
